A study of Mus musculus with 18 samples.

Results

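The beads used to enrich microglia in this study carry an antibody to CD11b, a surface integrin that microglia share with other myeloid cells. Described here are 10 marker genes of 3 such cell types, found by symbol among the 55536 genes of the count table. They are 5 genes of border macrophages (Mrc1, Pf4, Cd163, Ms4a7 and F13a1), 3 of monocytes (Ccr2, Ly6c2 and Plac8) and 2 of neutrophils (S100a8 and S100a9). All 10 symbols were found, and each names 1 protein-coding gene. The cell types are those the genes are known for, and in RNA from a mixed preparation a count cannot be traced to a cell.

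The data are RNA sequencing counts of CD11b-enriched striatal cells from 18 samples of adult C57BL/6 mice (C57Bl6/J in the methods), whose age the labels do not give. Mice were perfused with saline through the heart, and the striata were homogenised mechanically before a Percoll gradient and magnetic separation. The 4 groups are wild type (WT, n = 5), a constitutive homozygous deletion of Tyrobp (Tyrobp-KO, n = 3), the Q175 model (n = 5), and Q175 mice that also lack Tyrobp (Q175;Tyrobp-KO, n = 5). Q175 mice are heterozygous for a huntingtin knock-in allele with an expanded CAG repeat and model Huntington's disease, and Tyrobp encodes an adaptor of myeloid surface receptors. No group had an agent or treatment, and both mutations are present in every cell of the body, blood leukocytes included. Females gave 1 of 5 WT, 2 of 3 Tyrobp-KO, 4 of 5 Q175 and 2 of 5 Q175;Tyrobp-KO samples.

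Border macrophages live along the vessels, in the meninges and in the choroid plexus. They share much of the microglial programme but carry scavenger receptors that parenchymal microglia lack. Classical monocytes are blood cells marked by high surface Ly6C and the chemokine receptor CCR2, which lets them leave the bone marrow and enter tissue. Neutrophils hold calprotectin, the complex of S100A8 and S100A9, as one of the most abundant proteins of their cytosol. Striatal tissue outside the vessels holds few of these cells in healthy mice, and a saline perfusion clears most but not all blood.

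Total counts were 11260410 to 29771983 per sample, and 1 library had no count of 1 member (Pf4). The deleted gene, Tyrobp, was at 3629 to 8793 normalized counts in the 10 libraries of mice that keep it and at 183 to 395 in the 8 libraries of mice that lack it, so each library matched its label for Tyrobp. The Q175 labels were not checked against the data. A normalized count is the number of reads on a gene divided by the library's effective size (TMM of edgeR) and multiplied by the mean effective size of the 18 libraries. The summed level of 10 microglial markers, among them P2ry12, Tmem119 and Cx3cr1, was 12753 to 21924 CPM (the usual scaling of counts to library size, here to the effective size) and overlapped between all groups. Markers of non-myeloid cells differed far more between libraries. The sum of 5 choroid plexus genes ran from 0.805 to 1410 CPM, and that of 7 astrocyte genes from 503 to 5781 CPM.

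Members were scarce beside the microglial genes. Together they took 15.4 (WT replicate 8) to 152 (WT replicate 6) CPM of the total counts, with a median of 35.7. Per kilobase of exon, so that genes of different length can be set side by side, the mean level was 25.2 CPM for S100a9 and 20.2 for S100a8. It was 1.61 for Plac8, 1.35 for Mrc1, 0.997 for Ccr2, 0.642 for Pf4, 0.507 for F13a1, 0.360 for Ly6c2, 0.253 for Ms4a7 and 0.144 for Cd163. The calprotectin genes stood above the other 8 in this order, and above 89.9% (S100a8) and 92.7% (S100a9) of the genes with a mean of at least 1 CPM. Set against the median microglial marker of the same library, S100a8 reached a median of 2.72% (0.309 to 43.2) and S100a9 3.73% (0.242 to 43.8). The medians of the other 8 members were 0.0236 to 0.318% of it. Scaled to total counts, the scale of the filter on low genes, Mrc1, Ccr2 and S100a8 reached 1 CPM in all 18 samples, S100a9 and F13a1 in 17 and Plac8 in 15. Ly6c2 reached it in 7 samples, Cd163 and Ms4a7 in 5 and Pf4 in 1.

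**Figure D1:**
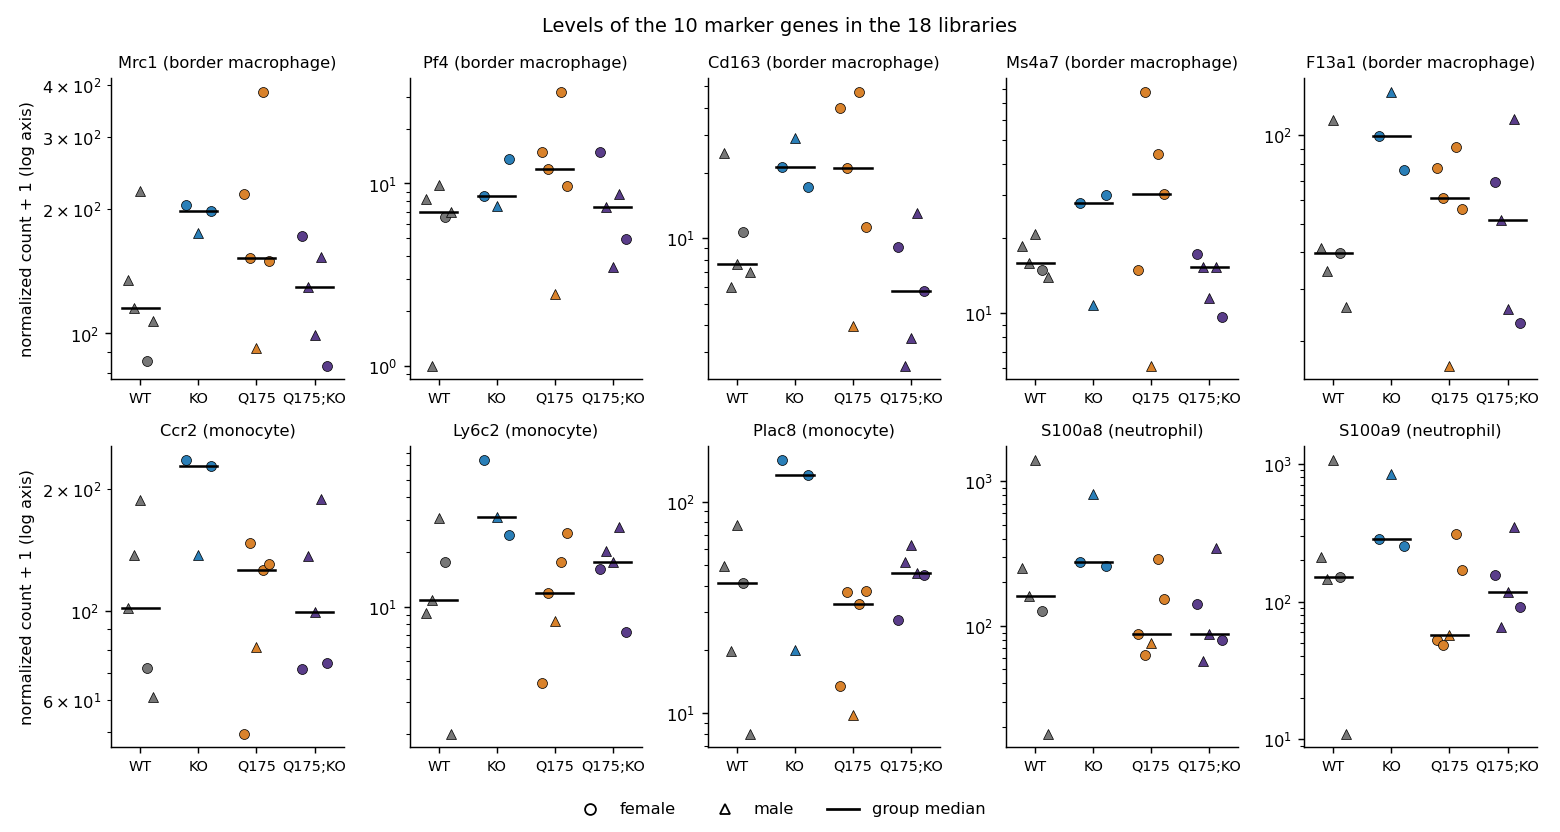
Normalized counts of the 10 members by group, 1 panel per gene, on a log axis of the normalized count plus 1. Circles are female and triangles male samples, lines are group medians, and KO stands for Tyrobp-KO; each mutant group overlaps the group it is compared with for every gene, and S100a8 and S100a9 spread the widest, from 17.04 to 1400 and from 10.02 to 1068.

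Mrc1 encodes the mannose receptor CD206, a scavenger receptor of border macrophages (chr2:14229392-14332057, plus strand, GRCm38). It had 134, 114, 221, 84.8 and 106 normalized counts in WT replicates 1, 2, 6, 7 and 8, and 204, 174 and 197 in Tyrobp-KO replicates 15, 19 and 20. In Q175 replicates 3, 4, 9, 14 and 17 it had 217, 151, 91.3, 384 and 149, and in Q175;Tyrobp-KO replicates 5, 11, 12, 13 and 16 it had 172, 129, 98.1, 152 and 82.5. The same order of replicates holds for every list of values that follows. Q175 replicate 14 was the highest library of all, while Q175 replicate 9, the only male of its group, lay within the low end of WT. Group means were 132 ± 52.7 for WT, 192 ± 15.5 for Tyrobp-KO, 198 ± 113 for Q175 and 127 ± 36.9 for Q175;Tyrobp-KO (each ± SD over the libraries of the group). Of all members but Pf4, which has a library at 0, Mrc1 had the smallest spread, 4.65-fold between the highest and lowest library.

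Cd163, the scavenger receptor for haptoglobin-bound haemoglobin (chr6:124304656-124330527, plus strand), had 23.8, 4.97, 6.59, 9.73 and 6.01 normalized counts in WT and 20.4, 27.8 and 16.3 in Tyrobp-KO. In Q175 it had 38.9, 20.1, 2.95, 46.1 and 10.2, and in Q175;Tyrobp-KO 8.12, 1.60, 2.47, 12.2 and 4.72. The 3 Tyrobp-KO libraries were above 4 of the 5 WT libraries and above all 5 Q175;Tyrobp-KO libraries, and the Q175 libraries covered nearly the whole range. How many of all genes part Tyrobp-KO from Q175;Tyrobp-KO in this way was not counted, so nothing is concluded from it. Group means of Cd163 were 10.2 ± 7.81 for WT, 21.5 ± 5.83 for Tyrobp-KO, 23.6 ± 18.4 for Q175 and 5.81 ± 4.35 for Q175;Tyrobp-KO, in the same form. These are few reads: the library with the most, Q175 replicate 14, had 39 on this gene and the library with the fewest had 2.

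Ms4a7, a tetraspanning membrane protein found in border macrophages and hardly in resting microglia (chr19:11321039-11336146, minus strand), had 17.6, 14.9, 19.8, 13.9 and 13.03 normalized counts in WT and 26.8, 9.82 and 28.9 in Tyrobp-KO. In Q175 the values were 13.9, 76.6, 5.16, 42.55 and 29.2, and in Q175;Tyrobp-KO 16.2, 14.4, 10.5, 14.4 and 8.65. WT and Q175;Tyrobp-KO each held a narrow range, whereas Q175 had both the highest library (replicate 4) and the lowest (replicate 9) of the 18. Its group means were 15.8 ± 2.79 for WT, 21.8 ± 10.5 for Tyrobp-KO, 33.5 ± 28.0 for Q175 and 12.8 ± 3.14 for Q175;Tyrobp-KO. Pf4 encodes platelet factor 4, a chemokine of platelets that border macrophages also make (chr5:90772435-90773383, plus strand). Its values were 0 to 8.79 in WT, 6.54 to 12.5 in Tyrobp-KO, 1.47 to 30.7 in Q175 and 2.47 to 13.9 in Q175;Tyrobp-KO. WT replicate 2 had 0 counts, which allows up to 0.207 CPM of the total counts by counting error.

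F13a1 encodes the A chain of coagulation factor XIII and is made by macrophages and platelets' precursors among other cells (chr13:36867178-37050244, minus strand). It had 40.4, 33.5, 112, 38.9 and 25.1 normalized counts in WT and 98.7, 139 and 75.3 in Tyrobp-KO. Values were 76.4, 60.2, 15.5, 89.8 and 55.2 in Q175 and 68.4, 50.4, 24.7, 113 and 22.01 in Q175;Tyrobp-KO. All 3 Tyrobp-KO libraries were above 4 of the 5 WT libraries, and WT replicate 6 lay among them. F13a1 means were 49.99 ± 35.2 for WT, 104 ± 32.3 for Tyrobp-KO, 59.4 ± 28.1 for Q175 and 55.6 ± 37.2 for Q175;Tyrobp-KO. A stretch of 74 exonic bases is shared with Gm30489 on the other strand, and since the libraries did not keep strand the reads there cannot be assigned.

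In Q175 against WT, the comparison that asks what the huntingtin mutation does, the fitted log2 fold change of every border macrophage gene was above 0. It was 1.23 for Pf4 (SE 0.778), 1.196 for Cd163 (SE 0.690), 1.05 for Ms4a7 (SE 0.571), 0.62 for Mrc1 (SE 0.371) and 0.27 for F13a1 (SE 0.485). The median was 1.05 beside -0.02 over all 18266 genes tested. None passed edgeR's quasi-likelihood test at a Benjamini-Hochberg FDR of 0.1, the smallest adjusted p of the 5 being 0.907. Pf4 entered this fit only through Q175 replicate 14, and Ms4a7 only through Q175 libraries. No WT library reached 1 CPM of the total counts for either gene. Without Q175 replicate 14 Pf4 was not tested, and the other 4 had a median of 0.49. With no filter on low genes all 5 were above 0 (median 1.04). Over all members 0 of 10 were called against a background of 0.0% of the genes tested. Without adjustment 0 of the 10 had a p under 0.05, where 6.24% of all genes did, and DESeq2's Wald test called 0 of the 10 and 234 genes in all. Sex was uneven between these groups. With sex as a term 4 of the 5 were still above 0 but the median was 0.03, with Mrc1 at 0.40 (SE 0.604) and F13a1 at -0.40 (SE 0.797). Within the sexes only 1 WT female and 1 Q175 male can be set beside the others: for Cd163 the 4 Q175 females had 10.2 to 46.1 normalized counts beside 9.73 in the WT female, and the Q175 male had 2.95 beside 4.97 to 23.8 in the 4 WT males. Sex and genotype are thus only partly separable in these samples. Genes of the choroid plexus, a tissue that holds border macrophages, were above 0 in 5 of 5 as well, with a median log2 fold change of 3.81. None of these 5 was called by either tool, all 5 had an unadjusted p under 0.05, and their sum was 0.805 to 91.5 CPM in WT and 3.30 to 1410 CPM in Q175. Of 7 astrocyte genes 7 were above 0 (median 1.27), 0 called by edgeR with 6 at an unadjusted p under 0.05, and 5 called by DESeq2. The part of these cells in the border macrophage values was not tested.

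In Q175;Tyrobp-KO against Q175, which asks what loss of Tyrobp does in the mutant, the same 5 genes were all below 0. The Q175 samples enter both comparisons, so the directions are not independent. The log2 fold change was -2.05 for Cd163 (SE 0.735), -1.35 for Ms4a7 (SE 0.581), -0.95 for Pf4 (SE 0.688), -0.65 for Mrc1 (SE 0.350) and -0.10 for F13a1 (SE 0.510), beside a median of -0.05 over the 18059 genes tested. None was called (adjusted p of Cd163 0.533, the smallest). Pf4, Cd163 and Ms4a7 entered this fit only through Q175 libraries, as no Q175;Tyrobp-KO library reached 1 CPM of the total counts for them. With no filter on low genes all 5 were below 0 (median -0.93). Of all members 0 of 10 were called and 0.0111% of all genes, 2 genes. Unadjusted p was under 0.05 for 2 of the 10, Cd163 at 0.0163 and Ms4a7 at 0.0381, and for 8.01% of all genes. DESeq2 called 0 of the 10 and 41 genes in all. With sex as a term Cd163 was at -1.31 (SE 0.865) and F13a1 at 0.15 (SE 0.673). Choroid plexus genes were below 0 in 5 of 5, with a median of -2.18, 0 called by either tool and 0 at an unadjusted p under 0.05.

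In Tyrobp-KO against WT 4 border macrophage genes could be tested, Pf4 staying under 1 CPM in all 8 libraries, and all 4 were above 0. Ms4a7 entered this fit only through Tyrobp-KO libraries. F13a1 had a log2 fold change of 1.14 (SE 0.473, unadjusted p = 0.0351, adjusted p = 0.687), Cd163 of 1.14 (SE 0.598), Mrc1 of 0.61 (SE 0.306) and Ms4a7 of 0.51 (SE 0.481). Of all members 0 of 9 were called beside 0.0222% of the 18017 genes tested, or 4 genes. Unadjusted p was under 0.05 for 3 of the 9, F13a1 and the monocyte genes Ccr2 and Ly6c2, beside 6.82% of all genes, and DESeq2 called 0 of the 9 and 168 genes in all. All 4 stayed above 0 when any 1 of the 8 libraries was left out and with sex as a term (median 1.04). Choroid plexus genes went the other way here, with 3 of 3 below 0 and a sum of 1.59 to 7.18 CPM in Tyrobp-KO. The 7 astrocyte genes were above 0 (median 1.36), with sums of 650 to 3953 CPM in Tyrobp-KO and 503 to 975 CPM in WT, and 1 was called by DESeq2.

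**Figure D2:**
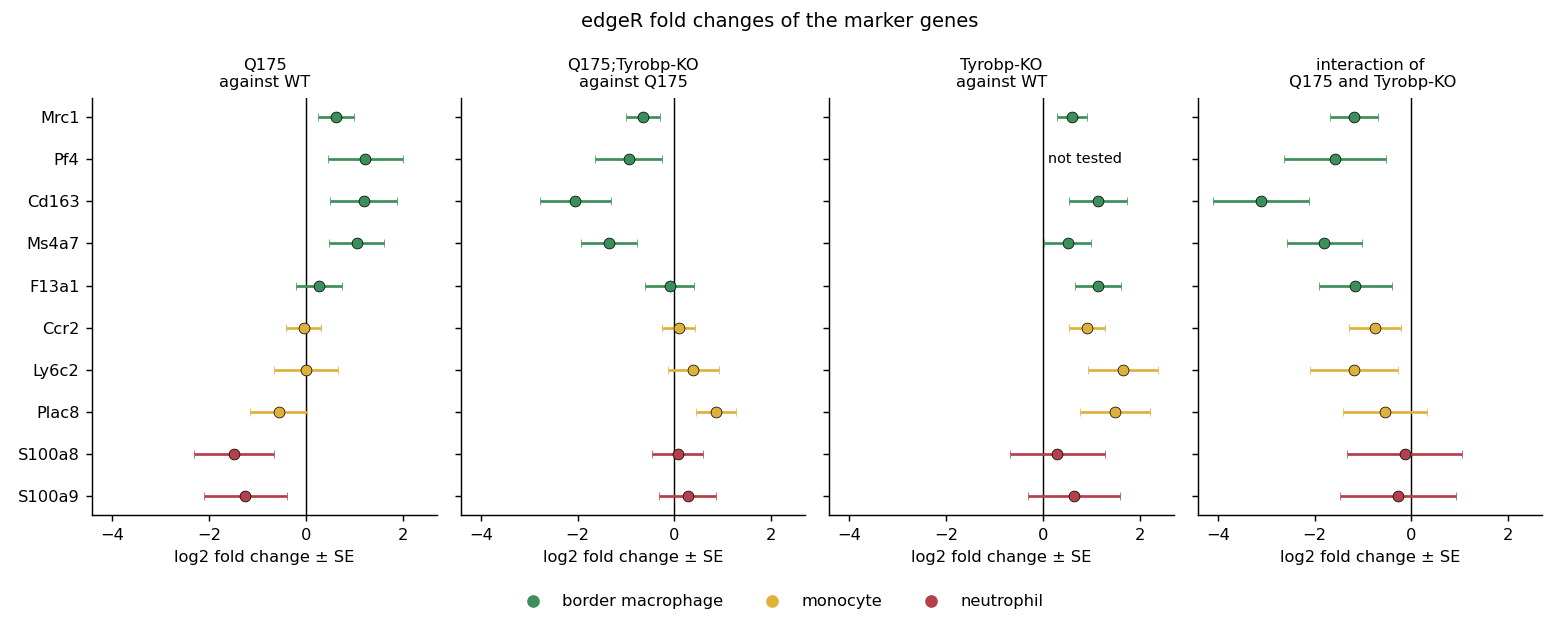
Fitted log2 fold changes of the members (points) with 1 standard error to each side in the 3 comparisons and the interaction, ordered by cell type, with a line at 0. Border macrophage genes lie right of 0 in Q175 against WT and in Tyrobp-KO against WT and left of 0 in Q175;Tyrobp-KO against Q175; no member passed an FDR of 0.1.

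Other genes known from border macrophages lay on both sides of 0. Of 12 such genes, drawn up for this report, 6 were detected in all 18 samples and 6 could be tested in Q175 against WT, 4 above 0 and 2 below (median 0.13, 0 called by edgeR, 1 at an unadjusted p under 0.05). In Q175;Tyrobp-KO against Q175 2 were above and 4 below 0 (median -0.13), and in Tyrobp-KO against WT 6 of 7 were above 0 (median 0.39). edgeR called 0 in either, with 0 and 3 at an unadjusted p under 0.05. DESeq2 called 1 of them, Cbr2, in Tyrobp-KO against WT (log2 fold change 1.92, SE 0.546, adjusted p = 0.0702). Cbr2, Clec10a and Mgl2, the 3 at an unadjusted p under 0.05 there in edgeR's test, entered that fit only through Tyrobp-KO libraries. Their WT means were 7.08, 3.54 and 5.10 normalized counts. Clec10a was also the 1 gene at an unadjusted p under 0.05 in Q175 against WT, which it entered only through Q175 libraries. Lyve1, the hyaluronan receptor that defines perivascular macrophages, had 0 counts in 3 libraries and at most 15.3 normalized counts, in Q175 replicate 3. The most abundant gene of the list was Stab1, a scavenger receptor, with 345 CPM on average, and its normalized counts were 3833 to 11296 in WT and 3707 to 6748 in Q175. Per kilobase Stab1 was at 33.5 CPM, beside 1.35 for Mrc1, and the part of microglia in its level was not tested. Cbr2, Clec10a, Mgl2 and Lyve1 are named after their values were seen. Since less RNA per cell and fewer cells give the same bulk count, the 2 cannot be told apart for any gene described here.

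Ccr2 encodes the receptor for the chemokine CCL2 and marks classical monocytes (chr9:124101950-124113557, plus strand). It had 101, 137, 187, 70.9 and 60.1 normalized counts in WT and 235, 137 and 227 in Tyrobp-KO. In Q175 it had 48.6, 146, 80.3, 125 and 129, and in Q175;Tyrobp-KO 70.8, 135, 98.1, 188 and 73.1. Tyrobp-KO replicates 15 and 20 were above all other libraries, and replicate 19 was level with WT replicate 2.

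Plac8, a small cysteine-rich protein of monocytes and other leukocytes (chr5:100553725-100572245, minus strand), had 48.7, 18.6, 76.9, 40.3 and 7.02 normalized counts in WT and 157, 18.8 and 133 in Tyrobp-KO. Q175 libraries had 12.5, 36.5, 8.84, 31.9 and 37.1, and Q175;Tyrobp-KO libraries 26.7, 51.2, 61.7, 45.3 and 44.0. The split within Tyrobp-KO was the same as for Ccr2, with replicates 15 and 20 high. Only 1 of the 5 Q175;Tyrobp-KO libraries was below the highest Q175 library.

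Ly6c2 encodes a Ly6C antigen, the surface marker by which classical monocytes are sorted (chr15:75108158-75111970, minus strand). Its neighbour Ly6c1, known from endothelium, is nearly identical. Over the coding sequence of 396 bases, 387 bases (97.73%) are the same, and the longest identical run is 188 bases. The first 120 coding bases hold 6 of the 9 differences and are shown because most of the coding differences lie there; capitals mark the differing bases (GENCODE M21 transcripts, GRCm38).
Ly6c1: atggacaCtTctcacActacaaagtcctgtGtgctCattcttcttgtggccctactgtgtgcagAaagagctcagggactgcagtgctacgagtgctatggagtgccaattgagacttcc
Ly6c2: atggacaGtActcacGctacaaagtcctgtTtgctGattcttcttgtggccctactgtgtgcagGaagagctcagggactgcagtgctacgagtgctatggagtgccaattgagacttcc
Of all 50-base stretches of Ly6c2 transcripts 14.45% also occur in another gene, mostly Ly6c1, and 31.21% of those of its protein-coding transcripts do. For each of the 5 border macrophage genes, Plac8, S100a8 and S100a9 the share was at most 0.404%. The counts of Ly6c2 are uncertain to that degree.

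Ly6c2 had 8.29, 9.94, 29.7, 16.7 and 1.002 normalized counts in WT and 63.3, 30.3 and 23.8 in Tyrobp-KO. It had 2.78, 10.9, 7.36, 16.5 and 24.4 in Q175 and 15.1, 19.2, 16.7, 26.5 and 6.29 in Q175;Tyrobp-KO. Tyrobp-KO was higher than WT in 14 of the 15 pairs of libraries, WT replicate 6 giving the exception. Ly6c1 had means of 24.1 in WT, 70.6 in Tyrobp-KO, 18.6 in Q175 and 10.9 in Q175;Tyrobp-KO. Its highest library was Tyrobp-KO replicate 20, where Ly6c2 was at its lowest of the group.

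All 3 monocyte genes were above 0 in Tyrobp-KO against WT, which asks what loss of Tyrobp does without the huntingtin mutation. Log2 fold changes were 1.66 for Ly6c2 (SE 0.722, unadjusted p = 0.0428), 1.49 for Plac8 (SE 0.725, unadjusted p = 0.0656) and 0.91 for Ccr2 (SE 0.377, unadjusted p = 0.0353). None was called, with adjusted p of 0.687 to 0.777 over all genes in edgeR's test. The 3 stayed above 0 without any 1 of the 8 libraries, with a median of 1.01 to 1.92. Tyrobp-KO means were 199.6 ± 54.7 for Ccr2, 39.1 ± 21.2 for Ly6c2 and 103 ± 73.7 for Plac8 (SD, n = 3), in normalized counts. In WT they were 111 ± 51.7, 13.1 ± 10.8 and 38.3 ± 27.2 (SD, n = 5). With sex as a term Plac8 was at 0.45 (SE 1.07), Ccr2 at 0.95 (SE 0.522) and Ly6c2 at 1.43 (SE 0.865). Both high Tyrobp-KO libraries were female, and the group's male was replicate 19.

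In Q175 against WT the monocyte genes lay near or below 0, with Ccr2 at -0.04 (SE 0.362), Ly6c2 at 0.0031 (SE 0.660) and Plac8 at -0.56 (SE 0.583). In Q175;Tyrobp-KO against Q175 they were at 0.09 (SE 0.343), 0.39 (SE 0.529) and 0.87 (SE 0.410, unadjusted p = 0.0556, adjusted p = 0.533 in edgeR's test). Plac8 had a mean of 45.8 ± 12.8 normalized counts in Q175;Tyrobp-KO and of 25.4 ± 13.6 in Q175 (SD, n = 5 each). Among 12 further monocyte genes 11 of 12 were above 0 in Tyrobp-KO against WT (median 0.89), 4 of 11 in Q175 against WT (median -0.11) and 8 of 11 in Q175;Tyrobp-KO against Q175 (median 0.34), with 0 called by edgeR and by DESeq2 in each and 1, 0 and 1 at an unadjusted p under 0.05. The 3 most abundant of them per kilobase were Vcan, Chil3 and Emilin2. Vcan, a matrix proteoglycan, had a log2 fold change of 0.32 in Tyrobp-KO against WT (unadjusted p = 0.268 in edgeR's test). Chil3, a chitinase-like protein of monocytes and neutrophils, had 1.39 (unadjusted p = 0.196). Emilin2, the 1 of the 12 below 0 there, had -0.32 (unadjusted p = 0.337).

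**Figure D3:**
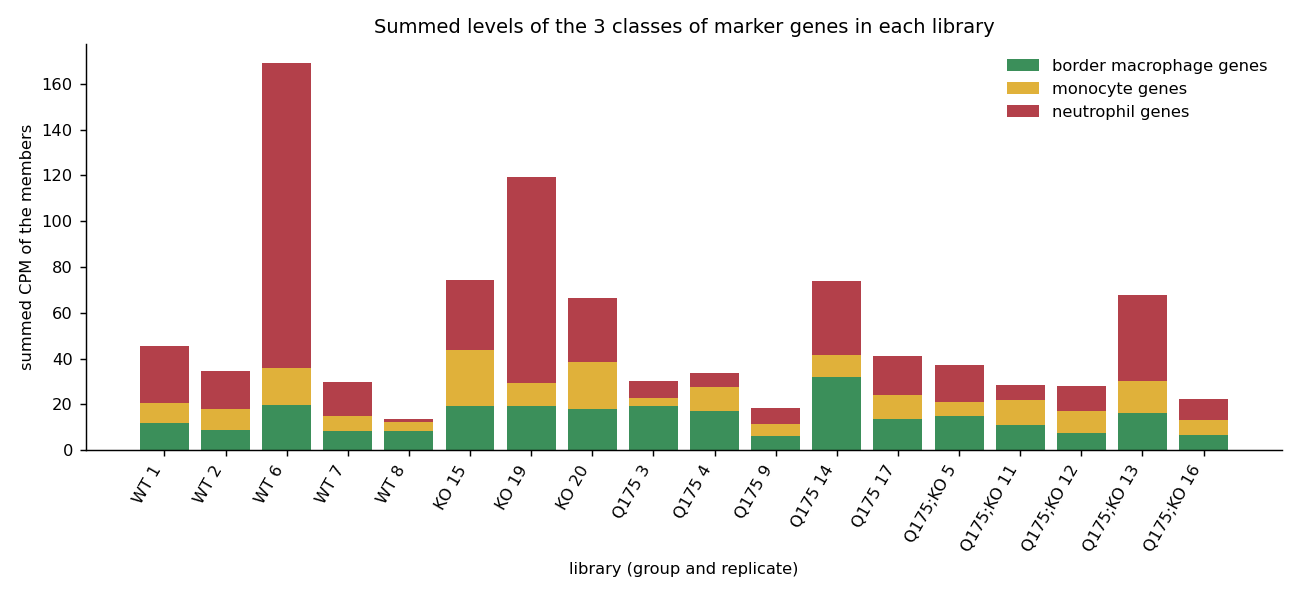
Summed CPM of the border macrophage, monocyte and neutrophil members in each of the 18 libraries, as stacked bars on a linear axis, grouped by genotype, with KO for Tyrobp-KO. Sums ran from 6.28 to 32.03 for border macrophage, from 3.45 to 24.6 for monocyte and from 1.46 to 133 for neutrophil genes, and WT replicates 6 and 8 hold both ends of the last.

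S100a8 and S100a9 encode the 2 chains of calprotectin, a calcium- and zinc-binding protein of neutrophils and, at lower level, of classical monocytes. They lie near each other on opposite strands of chromosome 3, S100a8 at chr3:90668978-90670035 on the plus strand and S100a9 at chr3:90692632-90695721 on the minus strand. Because their counts moved together across libraries, the sequence just upstream of each is printed, ending before the first base transcribed by either RefSeq or GENCODE annotation (GRCm38.p6, in the direction of transcription).
S100a8: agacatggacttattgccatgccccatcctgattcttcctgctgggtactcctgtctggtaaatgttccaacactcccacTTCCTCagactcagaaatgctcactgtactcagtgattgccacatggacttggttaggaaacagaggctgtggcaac
S100a9: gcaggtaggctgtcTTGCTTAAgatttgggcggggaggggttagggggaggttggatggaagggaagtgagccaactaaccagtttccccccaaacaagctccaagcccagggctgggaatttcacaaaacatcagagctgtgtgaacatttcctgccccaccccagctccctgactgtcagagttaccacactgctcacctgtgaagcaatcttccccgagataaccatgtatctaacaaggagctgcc
The S100a8 stretch is chr3:90668821-90668977 (157 bases, plus strand) and its capitals mark a match of GAGGAA, the core of sites of the myeloid factor PU.1, on the opposite strand. The S100a9 stretch is chr3:90695722-90695971 (250 bases, minus strand), with capitals at a match of TTNNGCAA, read on the opposite strand, a form of site of the granulocyte factors of the C/EBP family. Letters of both motifs and of TATAAA were searched on both strands of 300-base windows of RefSeq promoters (250 bases before to 50 after the start), of which 14 belong to the 10 members. GAGGAA occurred in windows of 7 members (Mrc1, Pf4, Ms4a7, F13a1, Ly6c2, Plac8 and S100a8) and in 28.28% of all 32851 windows. TTNNGCAA occurred for Pf4, Plac8 and S100a9 and in 10.8% of all windows, and TATAAA for S100a8 and S100a9 and in 13.62%. Relative to the RefSeq start, TATAAA lay at -30 for S100a8 and at 0, the start itself, for S100a9. Both lie outside the printed stretches, as does a further GAGGAA match of S100a8 at -36. Members with 2 windows had 2 chances of a match, and a match is a description of letters.

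S100a8 had 249.7, 160.2, 1400, 125 and 17.04 normalized counts in WT and 276, 816 and 259.8 in Tyrobp-KO. Values in Q175 were 87.5, 62.0, 75.1, 289.6 and 153, and in Q175;Tyrobp-KO 140.4, 55.99, 86.4, 345 and 78.6. WT held both ends of the whole range, replicate 6 at the top and replicate 8 at the bottom, 82.2-fold apart. S100a9 had 210.3, 144, 1068, 150.1 and 10.02 normalized counts in WT and 286, 850.0 and 253 in Tyrobp-KO. It had 51.4, 47.4, 55.97, 309.7 and 169 in Q175 and 155, 64.8, 116, 348 and 90.4 in Q175;Tyrobp-KO. The same libraries were at the ends as for S100a8, 106.5-fold apart, and Tyrobp-KO replicate 19, Q175 replicate 14 and Q175;Tyrobp-KO replicate 13 were the highest of their groups for both genes. Within groups the SD of log2 values was 1.45 for S100a8 and 1.55 for S100a9, and 0.584% and 0.404% of genes with a mean of at least 1 CPM had a larger one.

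The 2 calprotectin genes kept close to each other in every library. Their log2 normalized counts had a Pearson r of 0.978 across the 18 libraries (permutation p = 1e-05, the smallest that 100000 resamples can give, adjusted p = 0.00045 over 45 pairs) and a Spearman rho of 0.959 (permutation p = 1e-05). Without the 2 libraries farthest from the median r was 0.966, after subtraction of group means it was 0.984, and it was 0.954 in the 9 females and 0.986 in the 9 males. The ratio of S100a8 to S100a9 counts lay between 0.745 and 1.70 with a median of 0.977, while S100a8 alone varied 82.2-fold and S100a9 106.5-fold.

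**Figure D4:**
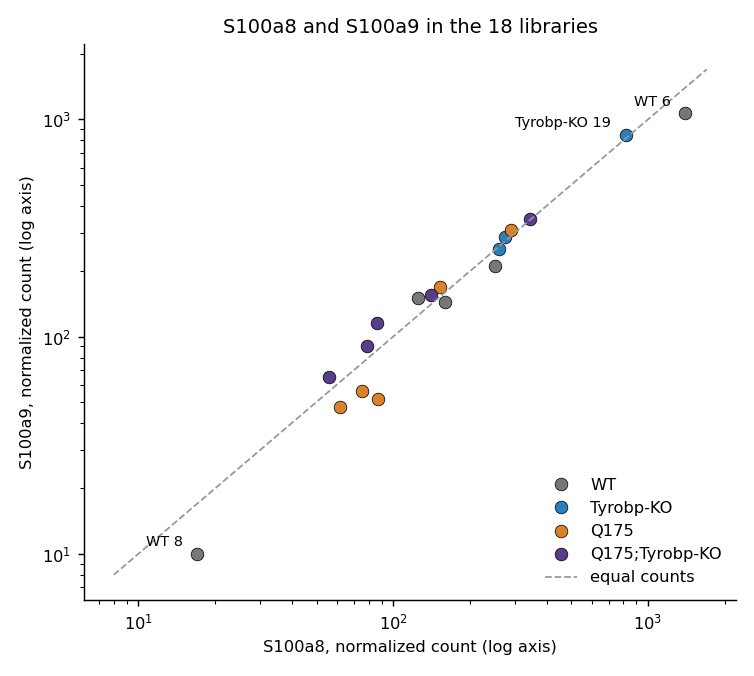
S100a9 against S100a8 in the 18 libraries, both as normalized counts on log axes, with group by colour and a dashed line at equal counts. The points follow a line from WT replicate 8 (17.04 and 10.02) to WT replicate 6 (1400 and 1068), and libraries of all 4 groups lie along it.

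The WT mean of S100a8 was 390.5 ± 571 (SD, n = 5), beside a Q175 mean of 133 ± 94.0 (SD, n = 5). Libraries without Tyrobp had a mean of 450.4 ± 316 (SD, n = 3) in Tyrobp-KO and of 141 ± 118 (SD, n = 5) in Q175;Tyrobp-KO. For S100a9 the 4 means were 316 ± 426, 127 ± 114, 463 ± 335 and 155 ± 113 in the same order. In Q175 against WT the log2 fold change was -1.49 for S100a8 (SE 0.834) and -1.25 for S100a9 (SE 0.861), neither called (adjusted p 0.926 and 0.975 in edgeR's test). Those differences rest on 1 library: without WT replicate 6 they were -0.01 (SE 0.614) and 0.03 (SE 0.720). In Tyrobp-KO against WT they were 0.30 (SE 0.986) and 0.64 (SE 0.955), 1.79 and 1.94 without WT replicate 6, and -0.47 and -0.15 without Tyrobp-KO replicate 19. In Q175;Tyrobp-KO against Q175 they were 0.07 (SE 0.534) and 0.27 (SE 0.584), and -0.57 and -0.26 without Q175;Tyrobp-KO replicate 13. At this spread between libraries no group difference of the calprotectin genes was detectable.

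Ngp and Retnlg, 2 further neutrophil genes, are given for the libraries at the ends of the calprotectin range and for Q175;Tyrobp-KO replicate 13. Ngp, a granule protein made by neutrophil precursors, had 1140 normalized counts in Tyrobp-KO replicate 19, 381 in Q175;Tyrobp-KO replicate 13, 351 in WT replicate 6 and 0 in WT replicate 8. Retnlg, a secreted protein of mature neutrophils, had 324 in WT replicate 6, 98.3 in Q175;Tyrobp-KO replicate 13, 86.7 in Tyrobp-KO replicate 19 and 9.02 in WT replicate 8. Q175;Tyrobp-KO replicate 11 and Q175 replicate 3 were lower still. The ratio of Ngp to Retnlg was 13.2 in Tyrobp-KO replicate 19 and 1.08 in WT replicate 6, so the 2 libraries with the most calprotectin counts differed in this ratio. Q175;Tyrobp-KO replicate 5 and Q175 replicate 3 had ratios of 13.9 and 11.5, with 9.28 and 8.33 normalized counts of Retnlg. Mpo, the peroxidase of neutrophil granules that is made at the earliest stages, had 0 counts in all 18 libraries and Elane, the elastase of the same granules, had 1 count in all. Ly6g, the surface marker by which neutrophils are sorted, had 0 counts in 4 libraries and at most 24.2 normalized counts, in WT replicate 6. Mpo, Elane and Ly6g are named after their values were seen. Of 13 further neutrophil genes 8 of 9 tested were below 0 in Q175 against WT (median -0.60), 7 of 8 above in Q175;Tyrobp-KO against Q175 (median 0.62) and 8 of 9 above in Tyrobp-KO against WT (median 1.19), with 0 called by edgeR and by DESeq2 in each and 0, 0 and 1 at an unadjusted p under 0.05.

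Genes of other blood cells were low beside the microglial markers, but not all were low beside the members. Summed CPM of the members was 3.45 to 24.6 for monocyte and 6.28 to 32.03 for border macrophage genes. The sum of 5 erythrocyte genes was 0.595 to 25.4 CPM in WT, 3.25 to 7.41 in Tyrobp-KO, 0.795 to 19.7 in Q175 and 0.216 to 26.8 in Q175;Tyrobp-KO, and Hbb-bs, a beta globin, was highest in WT replicate 6 (292 normalized counts). Sums of 7 platelet genes were 6.23 to 16.4 CPM, and those of 10 genes of natural killer cells and lymphocytes were 0.309 to 4.61 CPM, 5 of the 10 never reaching 10 counts. The part of residual blood in the calprotectin values of WT replicate 6 was not tested. Genes that recruit monocytes and neutrophils to tissue, 13 chemokines, adhesion molecules and receptors among them Ccl2, were called by neither tool in any of the 3 comparisons. Of the 8 tested 2 were above 0 in Q175 against WT, 3 in Q175;Tyrobp-KO against Q175 and 7 in Tyrobp-KO against WT, with 1, 2 and 1 at an unadjusted p under 0.05 in edgeR's test.

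The interaction asks whether the Q175 difference depends on Tyrobp, and is the Q175 difference without Tyrobp minus the Q175 difference with it. All 10 members had a value below 0 on the log2 scale, with a median of -1.17 beside 0.04 over the 18613 genes tested. Pf4 entered this fit only through Q175 replicate 14 and was not tested without it. Ms4a7 entered only through Q175 and Tyrobp-KO libraries. Both groups enter the contrast with a minus sign, so the filter favours values below 0 for these 2 genes. With no filter on low genes all 10 were below 0 (median -1.26). Cd163 was lowest at -3.10 (SE 0.985, unadjusted p = 0.00548), followed by Ms4a7 at -1.80 (SE 0.780, unadjusted p = 0.0333) and Mrc1 at -1.18 (SE 0.500, unadjusted p = 0.0291). None was called by edgeR (smallest adjusted p 0.716): 0 of 10 against 0.0% of all genes. Unadjusted p was under 0.05 for 3 of the 10 and for 6.01% of all genes, and DESeq2 called 0 of the 10 and 2 genes in all. The 5 border macrophage genes had a median of -1.58, the 3 monocyte genes of -0.75 and the 2 neutrophil genes of -0.21. Border macrophage genes stayed below 0 in each of 18 fits that left out 1 library and with sex as a term (median -1.02), where Plac8 went to 0.33 and Cd163 stayed at -2.70 (SE 1.14). The neutrophil genes were both below 0 in 14 of the 18 fits. Astrocyte genes were below 0 in 7 of 7 as well, with a median of -1.59, and choroid plexus genes in 3 of 5. Their part in the members' values was not tested.

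Ordered by mean level, Tyrobp-KO was the highest group for 6 members (F13a1, Ccr2, Ly6c2, Plac8, S100a8 and S100a9) and Q175 for the other 4 (Mrc1, Pf4, Cd163 and Ms4a7). Q175 was also the lowest group for 5, the monocyte and neutrophil genes. Q175;Tyrobp-KO was the lowest for 3 and WT for 2. Neighbours in these orders did not differ beyond their spread, since in all 30 neighbouring pairs the intervals of mean ± SD met and the ranges overlapped. In 2-sided exact permutation tests of each member in each of the 3 comparisons, 0 of 30 unadjusted p were under 0.05. The smallest, 0.0556 for Plac8 in Q175;Tyrobp-KO against Q175 (higher in 22 of 25 pairs of libraries) and 0.0794 for Cd163 in the same comparison (lower in 21 of 25), can be set beside the least value of 0.00794 that 5 against 5 allows in an exact permutation test. With 3 against 5 it was 0.0179, and Ly6c2 reached 0.0893. In these 3 comparisons no member had groups that did not overlap, where 1.09%, 0.864% and 4.48% of all genes did in Q175 against WT, Q175;Tyrobp-KO against Q175 and Tyrobp-KO against WT.

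Covariation of the members across the 18 libraries was counted within and between the 3 cell types. Of the 14 pairs within a class 13 had a Pearson r of log2 normalized counts past an adjusted permutation p of 0.05 (45 pairs in the family), and of the 31 pairs between classes 10 did. The median r was 0.676 within and 0.397 between classes, and all 45 were above 0. By Spearman's rho the counts were 12 and 11, after subtraction of group means 10 and 7, and without the 2 libraries farthest from the median 8 and 4. In the 9 females 5 pairs within and 0 between classes passed, and in the 9 males 3 and 9. The pairs share libraries, and the difference between the 2 sets of pairs was not tested.

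Mrc1 and F13a1 had the highest r among border macrophage genes, 0.801 (permutation p = 0.0001, adjusted p = 0.0015), with a rho of 0.878 (permutation p = 1e-05), 0.847 without the 2 farthest libraries and 0.874 and 0.927 in females and males. Ccr2 and Ly6c2 led the monocyte pairs at 0.796 (permutation p = 5e-05, adjusted p = 0.00113), with a rho of 0.732 (permutation p = 0.00093), 0.704 without the 2 farthest libraries and 0.798 and 0.876 in the sexes. The pair of 1 class that did not pass was Ms4a7 and F13a1, with an r of 0.477 (adjusted permutation p = 0.0795). Between classes Ly6c2 and S100a9 had the highest r, 0.794 (permutation p = 0.00016, adjusted p = 0.0018), with a rho of 0.773 (permutation p = 0.00023). It was 0.627 without the 2 farthest libraries and 0.787 and 0.860 in females and males. F13a1 had an r of 0.717 with S100a8 (adjusted permutation p = 0.00476) and of 0.681 with S100a9. Both were above its r with Cd163 (0.638), Pf4 (0.627) and Ms4a7 (0.477) and below that with Mrc1. With Ly6c2, Ccr2 and Plac8 it had 0.600, 0.557 and 0.384, so F13a1 did not follow its own class alone. The lowest r was 0.07, for Cd163 and Plac8 (permutation p = 0.795, rho -0.04).

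**Figure D5:**
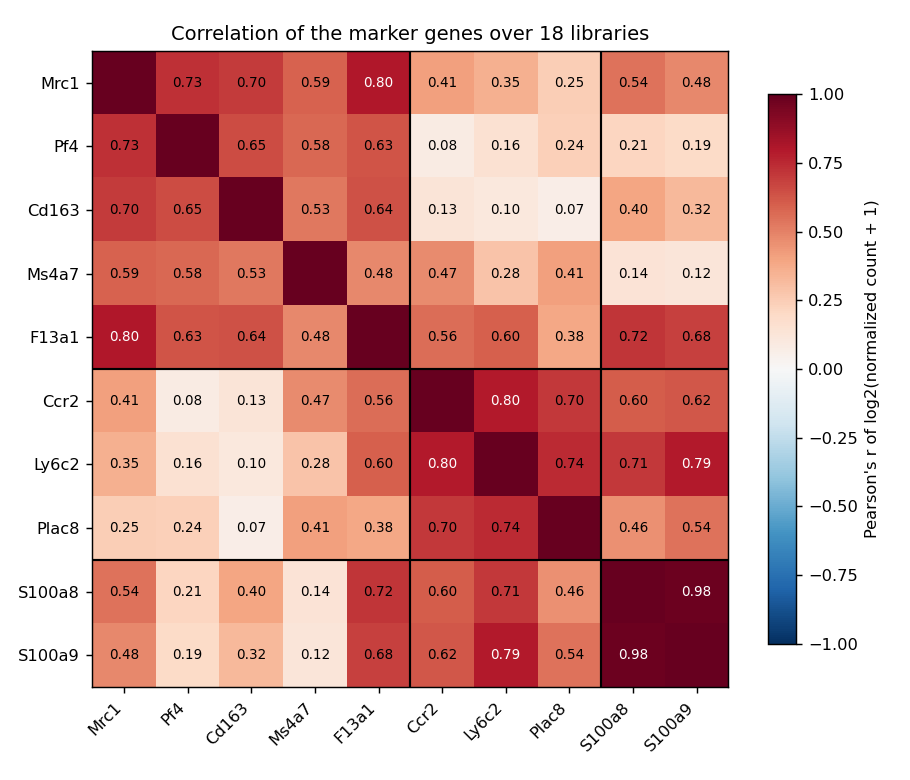
Pearson r between the log2 normalized counts of each pair of members across the 18 libraries, genes ordered by cell type on both axes and r given by colour. The 3 blocks on the diagonal hold the pairs within border macrophage, monocyte and neutrophil genes, with r from 0.477 to 0.978, and the cells outside them run from 0.07 to 0.794.

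The genes whose pattern across the 18 libraries was most like that of each class were ranked by Pearson r of log2 CPM with the mean of the members' standardised values, among the 16087 or 16088 genes with a mean of at least 1 CPM that are no member of the class. For the neutrophil members they were Anxa1 (r = 0.969), Lcn2 (0.931), Mmp8 (0.927), Camp (0.921) and Chil3 (0.906). Mmp8 and Camp are neutrophil granule genes of the list above, Lcn2 encodes a siderophore-binding lipocalin of granules, and Anxa1 encodes annexin A1, a phospholipid-binding protein. For the monocyte members they were Klra2 (0.863), Rfesd (0.813), Adgre4 (0.796), Phf11b (0.785) and Gbp2 (0.775), and Hp and Ifitm6 of the monocyte list ranked 18 and 25. Klra2 is an inhibitory receptor of the Ly49 family, Adgre4 an adhesion receptor of myeloid cells and Gbp2 an interferon-induced GTPase. For the border macrophage members they were Gng3 (0.842), Sdhc (0.831), Cox14 (0.821), Bola2 (0.818) and Apoo (0.815), none of which is on a marker list used here. Gng3 encodes a G protein gamma subunit of neurons, Sdhc a subunit of respiratory complex II and Cox14 an assembly factor of complex IV. Siglec1, Dab2 and Stab1, the other border macrophage genes that could be ranked, had an r of 0.01, 0.07 and -0.24, the last at rank 10869 of 16087.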

How the data were processed

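Microglia-enriched cells of 18 samples were sequenced from SMART-Seq v4 libraries that did not keep strand. The authors aligned reads with STAR and deposited counts per Ensembl gene from featureCounts, whole numbers without normalization. The methods name GRCm38, which all 55536 identifiers fit (GENCODE M21), whereas the submitters' processing notes name a human build. Labels give 2 striata per sample and the methods 1. A further 2 count columns, which match no label, were left out.

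The 10 members and all 18 marker lists (133 genes) were chosen with earlier results of these data known. A gene entered a comparison if any 1 of its samples reached 1 CPM of the total counts. Tests were made with edgeR 4.0.16 (TMM, quasi-likelihood, Benjamini-Hochberg FDR 0.1 over all genes) in R 4.3.3, each comparison on its own samples and the interaction over all 4 groups. The standard error is the size of the log2 fold change divided by the square root of F. Alternatives were DESeq2 1.42.0, 2 other scalings, 2 other filters, sex as a term, 1 fit over all groups and leaving out each sample. Permutation tests and correlations used scipy 1.17.1 on log2 of the normalized count plus 1. Fits were tested on simulated data. Named genes are the members, up to 3 of the highest mean CPM per kilobase in each list used beside a result, genes called at FDR 0.1 and the 5 most like each class; others were named after their values were seen, and some are not reported here. Labels do not say that samples are separate animals, so p-values measure the spread between these samples. Floors (3 counts) cover counting error only.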

Additional observations from a re-analysis of the deposited data

Results flagged for a closer look

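Within groups of 5 libraries, 4 values lay far from the other 4 by Dixon's criterion (critical value 0.710), out of 30 groups tested. The criterion was applied to normalized counts without a log, and all 4 values were the highest of their group. Its chance rate of about 1 in 20 groups holds for normally distributed values, so it cannot be used for these counts. The criterion was not run on the log2 scale of the permutation tests and correlations, and no conclusion is drawn from the number of flags. Cd163 had 23.8 normalized counts in WT replicate 1, the next being 9.73. F13a1 had 112 in WT replicate 6, the next being 40.4. S100a8 had 1400 in WT replicate 6, the next being 249.7, and S100a9 had 1068 there, the next being 210.3. Of these 4 values 3 are from 1 library, WT replicate 6, and S100a8 and S100a9 are not independent of each other.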

How the results depend on the processing

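The number of members called was 0 under every alternative run in all 3 comparisons and in the interaction. No paired analysis was possible because the groups share no replicate number. Under alternatives other than leaving out a library, 247 log2 fold changes kept their direction and 12 did not. Reversals with sex as a term were F13a1 (-0.40) and Ccr2 (0.057) and Ly6c2 (-0.43) in Q175 against WT, F13a1 (0.15) and Ccr2 (-0.15) in Q175;Tyrobp-KO against Q175, and Plac8 (0.33) in the interaction. Ly6c2 in Q175 against WT, at 0.0031, went to -0.041 with DESeq2, -0.031 with DESeq2's size factors, -0.031 with total counts, -0.021 without a filter and -0.042 with 1 fit over all groups. Total counts as scaling put F13a1 in Q175;Tyrobp-KO against Q175 at 0.076, and moved the median of all genes there from -0.05 to 0.08. The cause of these reversals was not tested. Leaving out 1 library at a time kept the direction of 415 values and turned 34. Ranges that crossed 0 were, in Q175 against WT, -0.21 to 0.22 for Ccr2, -0.47 to 0.56 for Ly6c2 and -1.89 to 0.033 for S100a9. In Q175;Tyrobp-KO against Q175 they were -0.52 to 0.11 for F13a1, -0.16 to 0.22 for Ccr2, -0.57 to 0.55 for S100a8 and -0.26 to 0.89 for S100a9. In Tyrobp-KO against WT they were -0.47 to 1.79 for S100a8 and -0.15 to 1.94 for S100a9, and in the interaction -1.64 to 0.61 and -1.58 to 0.50. Without the 2 libraries farthest from the median, 8 pairs within and 4 between classes passed the correlation test. Counts of 0 to 42 reads for Pf4, Cd163 and Ms4a7 limit what can be said of them, and 3 Tyrobp-KO samples limit each comparison that uses them.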
